A study of Mus musculus with 9 samples.

Results

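The genes described here are 10 immediate early genes, all but Zfp36 of the AP-1 and Egr families, matched by symbol in the feature lists. Their symbols are Fos, Fosb, Fosl1, Fosl2, Jun, Junb, Jund, Egr1, Atf3 and Zfp36. They are 10 of the 30407 genes that both experiments of the series list. The series holds single-cell RNA-seq of NIH3T3-CG cells, a line of mouse embryonic fibroblasts, that were stimulated with SAG, an agonist of Smoothened, the transducer of the Hedgehog pathway. Experiment 1 has 3 libraries, at 0, 17 and 30 h of SAG, and its labels mention no Dox. It was taken as without Dox in every comparison below, which the labels do not state. Experiment 2 has 6 libraries, at 0, 19 and 30 h of SAG, each once without and once with Dox. What Dox controls in these cells is not in the labels, nor is it stated whether the 30 h cells and the 0 h cells were plated together. No library without SAG beyond 0 h was analysed here, so time in SAG and time in culture cannot be told apart. All groups share the same line, which was lifted from the plates with trypsin before capture, and no condition has more than 2 libraries.

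Immediate early genes are transcribed within minutes of a stimulus such as serum, stress or cell handling, from promoters that are already poised, and their RNAs decay quickly. The Fos proteins pair with the Jun proteins to form AP-1, a leucine zipper factor that binds DNA at the sites of growth and matrix genes. Egr1 is a zinc finger factor induced by the same ERK and SRF signals, Atf3 is a stress-induced partner of the Jun proteins, and Zfp36 is an RNA-binding protein that shortens the life of AU-rich messages. Resting fibroblasts given serum are the textbook setting for these genes.

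Barcodes of 5000 UMIs or more with a mitochondrial share of 10% or less were kept, which left 571 to 6520 cells and 19407468 to 105444824 UMIs per library. The median kept cell held 8025 UMIs in the Experiment 2 library at 19 h without Dox and 28335 to 48188 in the other 8 libraries. The cells carried the labelled type: at least 3 of 9 fibroblast markers were found in 99.5% to 100% of cells, and none of the 9 was at 0 in any library, with a summed level of 6687 to 13267 CPM. At least 3 of 5 smooth muscle or myofibroblast markers were found in at most 2.29% of cells (139 to 489 CPM). Summed markers of immune, neural, erythroid, endothelial and epithelial cells reached 17.9, 5.94, 1.08, 0.670 and 0.484 CPM at most. Gli1, the standard Hedgehog target, was found in 0% to 0.327% of cells at 0 h. Later it was in 7.37% and 3.94% of cells at 17 and 30 h of Experiment 1. In Experiment 2 it was in 7.05% and 16.2% at 19 and 30 h without Dox, and in 22.3% and 25.2% with Dox. A pair of libraries shared at most 9 kept barcodes, or 0.513% of the smaller one. Levels are UMIs per 1000000 UMIs (CPM) scaled by the trimmed mean of M values (TMM), and TMM factors ran from 0.694 to 1.19. Scaling by library totals instead moved the median log2 fold change of all genes by -0.76 between the experiments at 0 h, by 0.39 for Dox, by 0.32 and 0.45 for SAG within Experiment 2 and by no more than 0.08 in size for SAG within Experiment 1.

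Fos and Fosb were high in the 0 h library of Experiment 1 and low in the later libraries of that experiment, a swing that Experiment 2 did not show. Fos, the founding AP-1 subunit, stood at 35.3, 2.60 and 4.21 CPM at 0, 17 and 30 h of Experiment 1. In Experiment 2 its level was 9.01, 7.11 and 8.75 CPM at 0, 19 and 30 h without Dox, and 10.1, 6.36 and 7.87 CPM with Dox. The first library thus lay 3.50-fold above the highest of the other 8, and the later libraries of Experiment 1 lay below all 6 of Experiment 2. Fosb, its closest relative, was at 15.1, 1.67 and 2.51 CPM in Experiment 1, at 10.3, 8.16 and 8.10 CPM in Experiment 2 without Dox and at 5.60, 5.24 and 5.89 CPM with Dox. Its highest and lowest values were again the 0 h and 17 h libraries of Experiment 1. In linear terms Fos was 13.6-fold and Fosb 9.04-fold higher at 0 h than at 17 h of Experiment 1, against 1.27-fold and 1.26-fold between 0 and 19 h of Experiment 2 without Dox.

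The promoters of Fos and Fosb, whose highest and lowest levels fell in the same libraries, are shown. Over the 9 libraries the Pearson r of log2 levels with Fos was 0.885 for Fosb and 0.875 for Jun. Fos and Fosb parted with Dox at 0 h, at a log2 difference of 0.16 and -0.88. No link between motifs and levels was tested. Fos lies on chromosome 12 (85473890 to 85477273, plus strand) and Fosb on chromosome 7 (19302696 to 19310051, minus strand), in GENCODE coordinates of GRCm38, which serve for every gene here. The stretches are the 150 bases before the RefSeq start site, written 5′ to 3′ on the gene's strand, and capitals mark matches to the motifs searched.
Fos, chr12:85473740-85473889, plus: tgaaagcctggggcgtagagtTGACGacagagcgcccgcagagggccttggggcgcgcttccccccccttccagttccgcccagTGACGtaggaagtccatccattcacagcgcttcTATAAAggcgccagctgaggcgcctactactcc
Fosb, chr7:19310046-19310195, minus: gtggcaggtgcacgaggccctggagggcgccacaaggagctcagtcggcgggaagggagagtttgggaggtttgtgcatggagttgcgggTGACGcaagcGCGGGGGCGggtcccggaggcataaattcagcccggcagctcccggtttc
The motifs were TGACG, the core of the cyclic AMP response element, found in 20.8% of the 32851 mouse promoters of the table. The others were the Egr site GCGNGGGCG (5.55%), the AP-1 site TGANTCA (7.81%), the SRF-binding CArG box (1.63%) and TATAAA (13.6%), each searched on both strands over 250 bases before to 50 after the start. The Fos promoter held TGACG 129 and 66 bases and TATAAA 33 bases before the start, and that of Fosb held TGACG 60 bases and an Egr site 50 bases before it. Promoter entries were used for 8 of the 10 genes. Of these, 4 held TGACG, 3 an Egr site, 1 (Zfp36) the CArG box and 0 the AP-1 site, while the entries of Jun and Jund held none of the 5 motifs. These are matches of letters in this window only, and the RefSeq start is not always that of the GENCODE gene. The Jund entry (chr8:70697489-70697788) lies wholly before the GENCODE start at 70698949, so it says nothing of the sequence next to that start. The entries of Fosl2, Atf3 and Zfp36 lie inside the GENCODE intervals of those genes.

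Short-lived messages often carry AU-rich elements after their coding part, the sites that Zfp36 binds. The nonamer TTATTTATT was found in the 3′ untranslated part of 3 of the 10 genes, against 7.32% of 21684 mouse genes. The windows of 29 bases around it are shown because one of them lies in Zfp36 itself.
Fos: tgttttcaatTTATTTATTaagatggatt
Fosl2: atttattttaTTATTTATTttaaatgttt
Zfp36: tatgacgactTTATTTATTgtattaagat
Per kilobase of that part, the pentamer ATTTA was denser than in the median gene (1.14) in 9 of the 10, led by Fos at 4.89 and Junb at 4.10. Fosb was the exception at 0.47, and no link of these counts to the levels was tested.

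**Figure D1:**
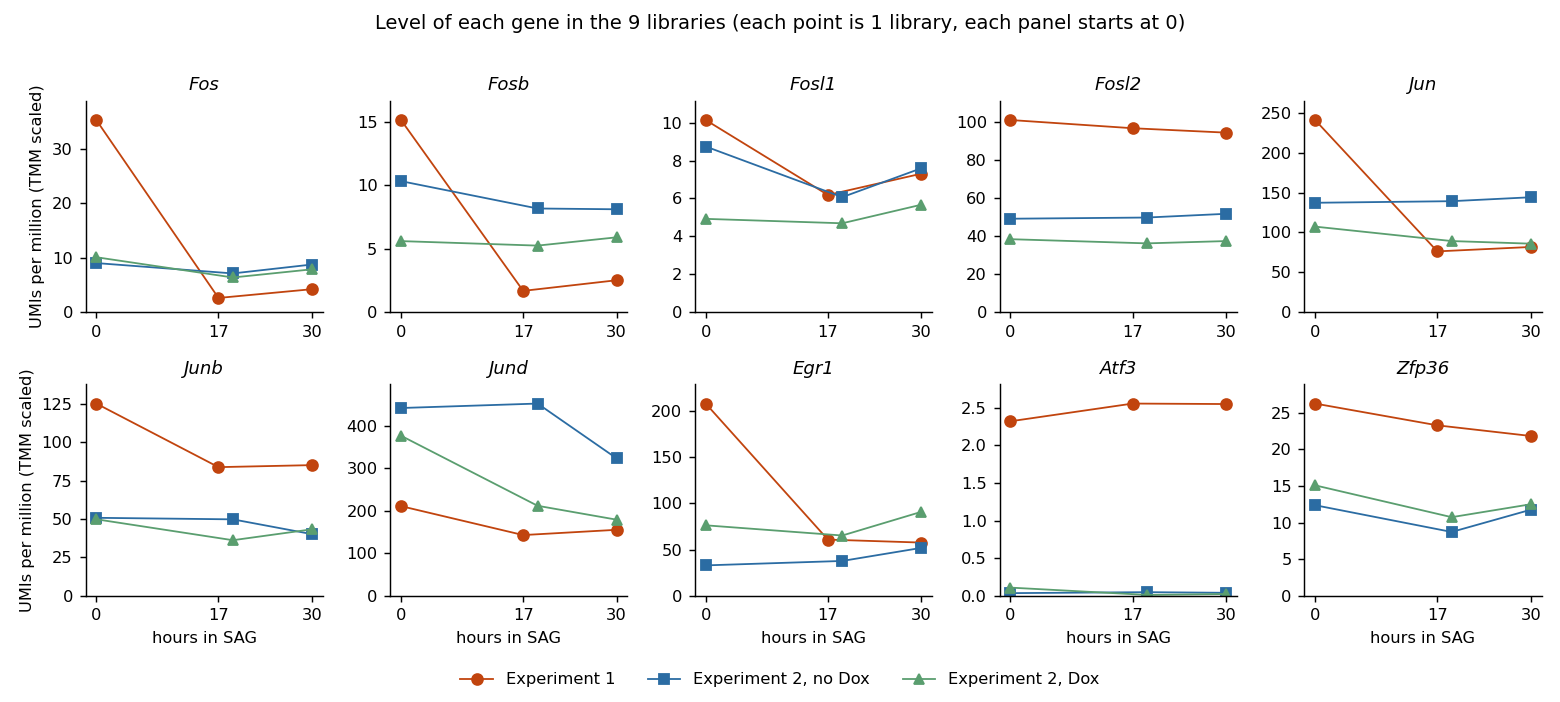
Level of each gene in CPM (TMM scaled, y axis from 0, own scale per panel) against hours in SAG (x axis), 1 point per library and lines joining the 3 libraries of Experiment 1, of Experiment 2 without Dox and of Experiment 2 with Dox. Fos, Fosb, Jun and Egr1 are highest at 0 h of Experiment 1, Fosb by only 1.47-fold over the next library. Fosl2, Junb, Atf3 and Zfp36 are higher in all 3 libraries of Experiment 1. Jund is at 211 or less there against 179 to 453 in Experiment 2.

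Over the 9 libraries the Fos-related antigens spanned a narrower range than Fos. Fosl1 (chromosome 19, 5447547 to 5455946, plus strand) is a Fos relative that lacks a transactivation domain and is induced late after growth stimulation. It was at 10.1, 6.19 and 7.31 CPM in Experiment 1, at 8.74, 6.07 and 7.59 CPM in Experiment 2 without Dox and at 4.92, 4.69 and 5.67 CPM with Dox. Its highest value was the 0 h library of Experiment 1 and its lowest in each arm was at 17 or 19 h, as for Fos, but the experiments overlapped and the whole range was 2.16-fold. Fosl2 (chromosome 5, 32135801 to 32157842, plus strand), its steadier relative, was at 101, 96.9 and 94.6 CPM in Experiment 1, at 49.2, 49.9 and 51.8 CPM in Experiment 2 without Dox and at 38.4, 36.2 and 37.4 CPM with Dox. It was nearly level over time within every arm, and the 3 arms did not overlap.

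Among the Jun proteins, which can pair with each other as well as with Fos, the member Jun alone dropped sharply in Experiment 1. Jun (chromosome 4, 95049034 to 95052222, minus strand) went from 241 CPM at 0 h to 76.3 and 81.8 CPM at 17 and 30 h, while it stayed at 137, 139 and 144 CPM in Experiment 2 without Dox and at 107, 89.2 and 86.0 CPM with Dox. Its 0 h level in Experiment 1 was 1.67-fold the highest of the other 8 libraries. Junb (chromosome 8, 84974484 to 84978718, minus strand), an AP-1 subunit that can oppose Jun at its targets, was at 125, 83.9 and 85.2 CPM in Experiment 1, at 50.8, 49.8 and 40.1 CPM in Experiment 2 without Dox and at 49.8, 36.2 and 43.3 CPM with Dox. Every library of Experiment 1 exceeded every library of Experiment 2 in Junb. Jund (chromosome 8, 70698949 to 70700616, plus strand), the subunit kept on in resting cells, had the opposite order, with 211, 143 and 155 CPM in Experiment 1, 442, 453 and 324 CPM in Experiment 2 without Dox and 377, 212 and 179 CPM with Dox. The highest values of Jund were thus in Experiment 2 without Dox, and the 30 h Dox library lay within the range of Experiment 1.

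Egr1 followed Jun within Experiment 1 but not within Experiment 2. It lies on chromosome 18 (34859823 to 34864984, plus strand). Its level was 208, 60.8 and 57.6 CPM in Experiment 1, 32.8, 37.6 and 51.8 CPM in Experiment 2 without Dox and 76.3, 65.2 and 90.9 CPM with Dox. The 0 h library of Experiment 1 was 2.29-fold above the next one, and the 3 Dox libraries lay above the 3 without Dox. Zfp36 (chromosome 7, 28376784 to 28380253, minus strand), the decay factor, was at 26.3, 23.3 and 21.8 CPM in Experiment 1, at 12.4, 8.72 and 11.8 CPM in Experiment 2 without Dox and at 15.1, 10.7 and 12.5 CPM with Dox. Its range over the 3 times of Experiment 1 was small beside the gap between the experiments. Atf3 (chromosome 1, 191170296 to 191218039, minus strand), the stress-induced member, had 79, 55 and 66 UMIs in the libraries of Experiment 1, or 2.32, 2.56 and 2.55 CPM. In Experiment 2 it had 2, 4 and 4 UMIs without Dox and 4, 1 and 2 UMIs with Dox, at or next to the floor of 3 UMIs per library. Atf3 therefore stood apart between the experiments at every time and can be compared within Experiment 1 only.

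The first question the design asks is whether SAG changed these genes. With edgeR's quasi-likelihood test over all 9 libraries and the experiment as a block, 16 of 14354 genes (0.111%) were called at 17 to 19 h without Dox, at an adjusted p under 0.05. Fos was the 1 member among them, with a log2 fold change of -2.19 (SE 0.45, adjusted p = 0.0345), and Fosb missed the threshold at -1.72 (SE 0.39, adjusted p = 0.0756). Jun stood at -0.90 and Egr1 at -0.96 (adjusted p = 1 for each). At an unadjusted p under 0.05 there were 5 members, where 2.67% of genes passed. The median log2 fold change of the 10 members was -0.48, beside -0.02 over all genes tested. At 30 h, 64 genes (0.446%) and 0 members were called by edgeR, with 3 members at an unadjusted p under 0.05, where 10.3% of genes passed, and 0 members by DESeq2. Fos was then at -1.80 (SE 0.44, adjusted p = 0.0571) and Fosb at -1.58 (SE 0.38, adjusted p = 0.0523). The 17 to 19 h and 30 h comparisons share the 0 h libraries. The call of Fos rested on the 0 h library of Experiment 1: without it the change was -0.42 (adjusted p = 0.796) and, at 30 h, 0.03, and that of Egr1 at 17 to 19 h turned to 0.34 (adjusted p = 0.881). Without the 0 h library of Experiment 2 without Dox, the change of Fos was -3.62 at 17 to 19 h, and Fos, Fosb, Jun and Egr1 were called at both times. The call of Fos was also lost without the experiment as a block (-2.17, adjusted p = 1), in DESeq2 (adjusted p = 1), and without any of 5 other libraries. Those are the 17 h (-1.25) and 30 h libraries of Experiment 1, the 30 h library of Experiment 2 without Dox and the 19 h and 30 h libraries with Dox.

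Within Experiment 1, Fos, Fosb, Jun and Egr1 fell. A single edgeR model with a term for every time and experiment and 1 Dox shift put 4 members lower at 17 h than at 0 h in Experiment 1, where 0.439% of 14354 genes were called lower. The log2 fold change was -3.76 for Fos (SE 0.26, adjusted p = 2.38e-18), -3.17 for Fosb (SE 0.28, adjusted p = 1.42e-13), -1.78 for Egr1 (SE 0.22, adjusted p = 3.32e-08) and -1.66 for Jun (SE 0.23, adjusted p = 4.79e-07). At 30 h the same 4 were called lower, where 0.341% of genes were, with -3.07 for Fos (SE 0.24), -2.59 for Fosb (SE 0.26), -1.85 for Egr1 (SE 0.22) and -1.56 for Jun (SE 0.23). Fosl1, Junb and Jund, at -0.71, -0.58 and -0.56 at 17 h, did not pass (adjusted p = 0.181, 0.259 and 0.383), and Fosl2, Zfp36 and Atf3 lay between -0.17 and 0.14. These tests assume that the single libraries of Experiment 1 vary as those of Experiment 2 do around the Dox shift. The labels do not say that libraries came from separate cultures, so all p-values here reflect only how far these libraries spread, and that spread may be technical.

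In Experiment 2 the same model called 2 members at 19 h and 2 at 30 h. At 19 h, where 10.2% of genes were called lower, Fos (-0.50, SE 0.15, adjusted p = 0.0110) and Zfp36 (-0.50, SE 0.14, adjusted p = 0.00798) fell. Both calls were lost with scaling by library totals (-0.19 and -0.18) and without either 0 h library of Experiment 2. Fos also missed the threshold in DESeq2 (adjusted p = 0.0574) and without the Dox library at 19 h (adjusted p = 0.0850). At 30 h, where 22.7% of genes were called lower and 24.1% higher, Jund fell (-0.78, SE 0.17, adjusted p = 0.000144) and Egr1 rose (0.45, SE 0.15, adjusted p = 0.0121). Without the Dox library at 0 h both calls were lost, with Jund at -0.39 and Egr1 at 0.66, and that of Egr1 also without the 0 h (0.24) or the 30 h (0.32) library without Dox. With library totals Jund was at -0.33 (adjusted p = 0.0744) and Egr1 at 0.90 (adjusted p = 1.59e-05). A share of called members near that of all genes is not a result about these 10 genes. Fos and Fosb, which had fallen several-fold in Experiment 1, stood at -0.20 and -0.15 at 30 h of Experiment 2, and at 0.25 and 0.30 with library totals, uncalled on either scale.

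**Figure D2:**
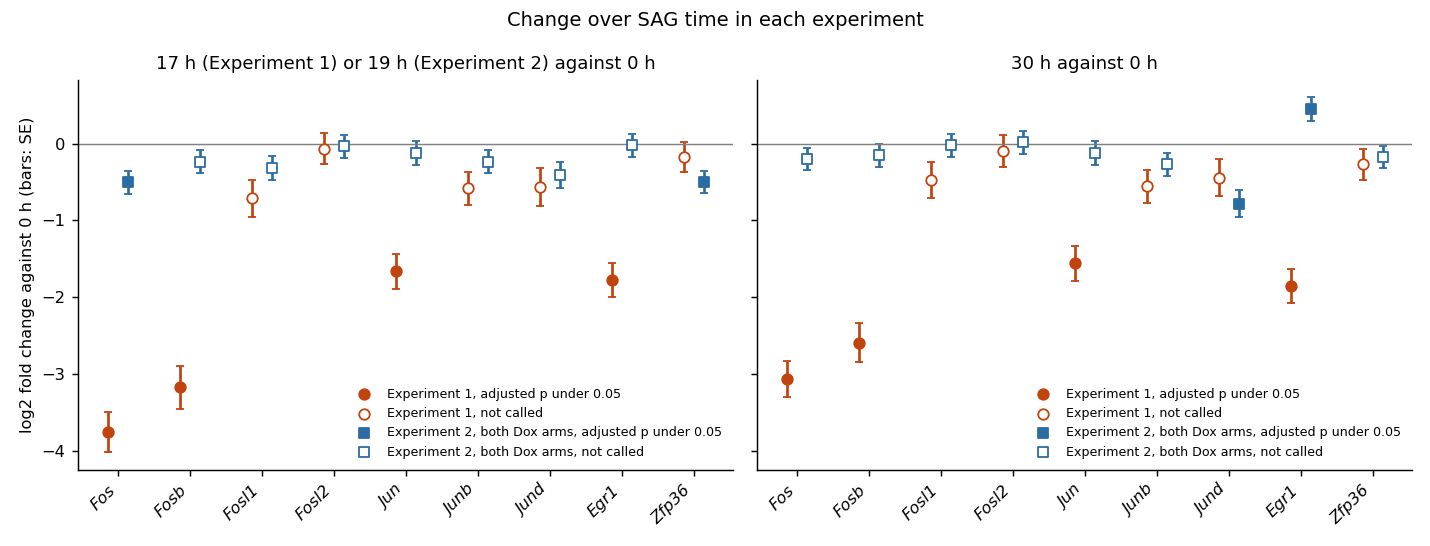
Log2 fold change against 0 h (y axis) of 9 genes (x axis) at 17 or 19 h (left) and 30 h (right), from 1 edgeR model; bars are standard errors, circles Experiment 1, squares Experiment 2, and filled symbols have an adjusted p under 0.05. Fos, Fosb, Jun and Egr1 of Experiment 1 lie between -3.76 and -1.56, far below the squares of Experiment 2.

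The difference between the experiments was tested itself. The change from 0 h to 17 or 19 h was higher in Experiment 2 than in Experiment 1 for 4 members, where 3.45% of 14354 genes were called higher. Fos differed by 3.26 (SE 0.30, adjusted p = 9.92e-13), Fosb by 2.94 (SE 0.33, adjusted p = 4.78e-10), Egr1 by 1.76 (SE 0.27, adjusted p = 3.66e-06) and Jun by 1.53 (SE 0.27, adjusted p = 8.42e-05). At 30 h the same 4 were called, where 9.36% of genes were called higher, with 2.87 for Fos (SE 0.28), 2.44 for Fosb (SE 0.30), 2.30 for Egr1 (SE 0.27) and 1.43 for Jun (SE 0.27). The call of Jun at 17 to 19 h was lost when the 0 h library of Experiment 2 without Dox was left out (adjusted p = 0.0535). The other 6 members had adjusted p of 0.474 or more at 17 to 19 h, from -0.32 (Zfp36) to 0.39 (Fosl1) leaving out Atf3, whose counts in Experiment 2 are too few for a value. Each of these differences uses the one 0 h library of Experiment 1.

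That library was then set against its counterpart. At 0 h without Dox, 8 of 10 members were lower in Experiment 2, where 25.9% of genes were called lower, and 1 was higher, where 24.1% were. Egr1 stood at -2.52 (SE 0.19, adjusted p = 4.09e-18), followed by Fos at -1.86 (SE 0.18), Junb at -1.25 (SE 0.19), Zfp36 at -1.06 (SE 0.18) and Fosl2 at -1.0 (SE 0.19). Jun (-0.70, SE 0.20) and Fosb (-0.65, SE 0.19) were called too, Atf3 was called lower with 2 UMIs in Experiment 2, and Jund was higher by 1.34 (SE 0.24, adjusted p = 2.34e-06). Fosl1, at -0.34, was not called (adjusted p = 0.147). The median of the members was -1.03, beside -0.02 over all genes, and Atf3 lies below that median at any value its counts allow. With library totals the same directions held, with Jund at 0.57 (adjusted p = 0.0151). Leaving out the 0 h library of Experiment 2 without Dox ended the calls of Jun (adjusted p = 0.348) and Atf3 (adjusted p = 0.0844), and leaving out the Dox library at 0 h that of Fosb (adjusted p = 0.0554), which DESeq2 did not call either. The experiments also differ in the software version and gene models of the deposited matrices, so experiment and processing cannot be told apart.

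Dox went with opposite shifts among the members. In Experiment 2, 5 of 9 members tested were lower with Dox, where 18.4% of 14162 genes were called lower, and Egr1 was higher, where 18.6% were. Egr1 was up by 0.94 (SE 0.12, adjusted p = 3.35e-08), with 1.21, 0.79 and 0.81 at 0, 19 and 30 h. Jund was at -0.73 (SE 0.15, adjusted p = 9.85e-05), with -0.23, -1.10 and -0.85 at the 3 times. Fosb was at -0.65 (SE 0.12), Jun at -0.58 (SE 0.13), Fosl1 at -0.53 (SE 0.12) and Fosl2 at -0.43 (SE 0.12), and each of these 4 was lower with Dox at all 3 times. Fos (-0.06), Junb (-0.13) and Zfp36 (0.22) were not called by edgeR (adjusted p = 0.734, 0.422 and 0.120), and Atf3 was too low to test. The direction of Egr1 and Jund held with library totals, at 1.33 (adjusted p = 7.43e-10) and -0.34 (adjusted p = 0.0253). On that scale Fosb, Jun, Fosl1 and Fosl2 stood at -0.26, -0.19, -0.14 and -0.04 and were not called, while Fos stood at 0.34 (adjusted p = 0.0730), and Zfp36 was called higher at 0.61 (adjusted p = 0.00146). With Dox as the only term, without the SAG time, 0 members were called (edgeR), and Egr1 stood at 0.92 (adjusted p = 0.0961). Without either 0 h library the calls of Fosl1 and Fosl2 were lost, with adjusted p of 0.0586 to 0.0709 (edgeR). Cells under 1% mitochondrial UMIs made up 18.2% and 17.9% of the Dox libraries at 19 and 30 h, 19.7% of the 30 h library without Dox and at most 1.41% elsewhere. Kept to cells with at least 1%, the test called 1 member higher and 5 lower.

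**Figure D3:**
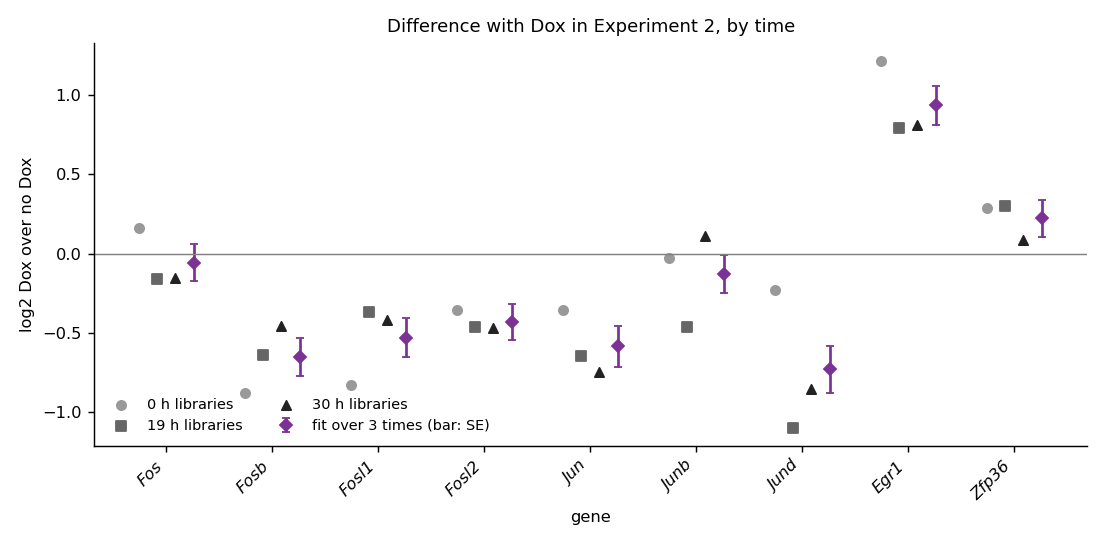
Log2 of Dox over no Dox in Experiment 2 (y axis, TMM scaled) for 9 genes (x axis): grey to black symbols compare the libraries at 0, 19 and 30 h, and diamonds give the fit over the 3 times with its standard error. Egr1 lies above 0 at every time, and Fosb, Fosl1, Fosl2, Jun and Jund lie below 0 at every time.

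The levels above can come from more cells or from more RNA per cell. Each cell was therefore thinned to 10000 UMIs, which left out shallower cells: 16 to 38 in 4 libraries, 49 to 321 in 4, and 3910 (60.0%) in the 19 h library without Dox. Thinned values are shares of all UMIs and carry no TMM scaling. Fos was found in 22.6% of cells at 0 h of Experiment 1 (exact 95% binomial interval 19.9% to 25.4%), in 2.39% and 3.04% at 17 and 30 h, and in 4.25% to 6.19% of cells in Experiment 2. Egr1 was found in 73.2%, 30.8% and 31.8% of cells in Experiment 1, in 13.2%, 17.9% and 19.8% in Experiment 2 without Dox and in 26.9%, 27.2% and 36.3% with Dox. Both genes were thus detected in more cells of the first library than of any other. The cells with a UMI also held more of them there. Egr1 had a mean of 3.30 UMIs in such cells, against 2.15 and 2.09 at 17 and 30 h of Experiment 1. Fos had 1.89, against 1 and 1.29. At such low counts the share with a UMI also rises with RNA per cell, so it cannot tell the 2 apart. Fosb was found in 13.1%, 2.03% and 1.61% of cells in Experiment 1 and in 3.72% to 6.06% in Experiment 2. Jun was found in 76.1% of cells of the first library and in 47.0% to 59.6% of the other 8. Junb was at 62.5%, 54.1% and 50.4% in Experiment 1 against 25.5% to 32.0% in Experiment 2, and Fosl2 at 65.1%, 63.4% and 59.6% against 26.5% to 37.4%. Those 2 genes split by experiment rather than by time, as their levels did. Atf3 was found in 3.71%, 3.13% and 2.33% of cells in Experiment 1 and in at most 0.0755% in Experiment 2, with 0 of 1935 and 0 of 1529 cells at 19 and 30 h with Dox, which allows shares of up to 0.155% and 0.196% by a floor of 3 counts. Intervals and floors cover counting error only, and free RNA may add UMIs to cells that do not express a gene. No cell class without these genes was there to measure it.

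**Figure D4:**
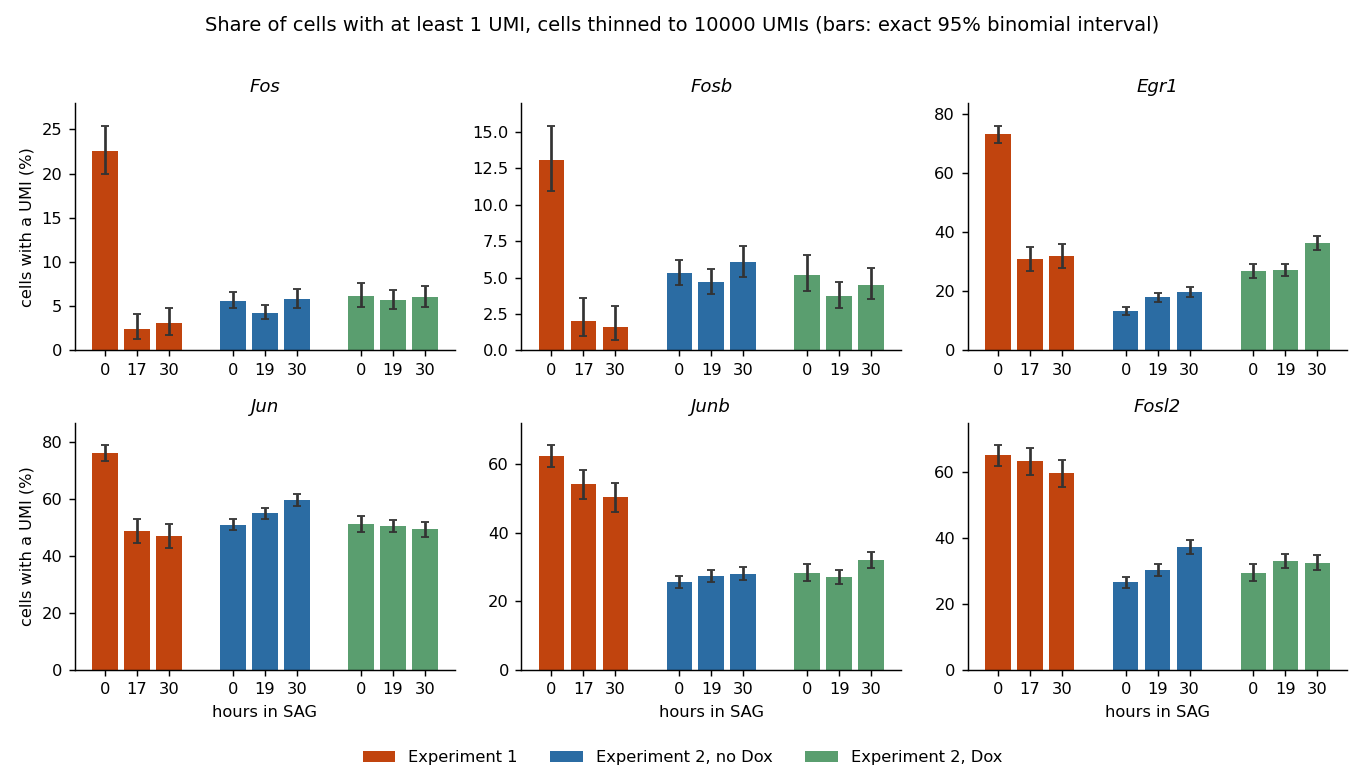
Share of cells with at least 1 UMI (y axis, percent, own scale per panel from 0) for 6 genes, after thinning to 10000 UMIs, by hours in SAG (x axis) and arm; bars carry the exact 95% binomial interval, which covers counting error only. Fos, Fosb, Egr1 and Jun stand out at 0 h of Experiment 1, and Junb and Fosl2 are higher in all 3 libraries of Experiment 1.

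The members also differed in how evenly cells carried them. Excess variance, the variance between thinned cells beyond counting noise divided by the squared mean, was 0.210 to 0.337 for Jund and 0.148 to 0.657 for Fosl2 over the 9 libraries. Excess variance was 0.940 to 2.64 for Jun, 0.652 to 2.63 for Junb and -0.0647 to 1.35 for Zfp36. Jund thus stayed low in every library, while the highest value of Fosl2 lay just above the lowest of Junb. Egr1 was most even where it was highest, at 0.777 in the 0 h library of Experiment 1, against 2.34 to 5.93 in the others. For Fos it was 3.71 in that library and 10.2 to 24.5 in the 30 h library of Experiment 1 and the 6 of Experiment 2. In the 17 h library of Experiment 1, 13 cells held 1 UMI of Fos each, too few to describe a spread. The top 1% of cells held 15.6% of Fos UMIs at 0 h of Experiment 1 and 33.1% to 50% in the other 8 libraries. A single cell held up to 29 UMIs of Egr1, 33 of Jun and 12 of Fosb.

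Within a library, Fosb, Egr1, Junb, Jun and Zfp36 were weakly tied to Fos from cell to cell. The Pearson r across thinned cells, as a median over 9 libraries, was 0.28 for Junb with Egr1 (0.07 to 0.37), 0.28 for Fos with Egr1 (0.14 to 0.36), 0.26 for Fos with Fosb (0.12 to 0.36) and 0.20 for Fos with Junb (0.06 to 0.27). Jun and Zfp36 followed, at 0.14 (0.04 to 0.34) and 0.11 (0.01 to 0.20) with Fos, while Fosb with Junb was at 0.07 (0.04 to 0.13). These are descriptions over cells of 1 library each, which share its preparation. Among cells with a UMI of Fos, 43.0% to 88.2% held Egr1, against 11.4% to 69.6% of cells without Fos, and the share was higher in 9 of 9 libraries. Fosb was found in 5.88% to 26.9% of the cells with Fos and in 1.48% to 9.15% of those without, again higher in 9 of 9 libraries. Junb, Jun and Zfp36 were likewise more frequent in cells with Fos in 9 of 9 libraries, with exact 95% intervals apart in 7, 4 and 7 of them. In the Dox library at 19 h, for example, Egr1 was in 81.8% of 110 cells with Fos and in 23.9% of the rest. Jund had a median r with Fos of 0.04 (-0.01 to 0.24), and Atf3, measured in the 3 libraries of Experiment 1 only, of -0.03. Fosl2 and Fosl1 had a median r with Fos of 0.01 and -0.03. Fosl1 was found in 0% to 15.4% of cells with Fos and in 3.01% to 6.20% of those without, and the intervals were apart in 1 of 9 libraries, that of 30 h in Experiment 2 without Dox, with 0% in 119 cells with Fos (exact interval up to 3.05%) and 4.51% in the others. A cell held a median of 4 of the 10 genes at 0 h of Experiment 1, of 3 at 17 and 30 h and of 2 in every library of Experiment 2. Fos, Fosb and Egr1 were together in 5.67% of cells of the first library and in 0.179% to 1.12% of cells elsewhere.

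**Figure D5:**
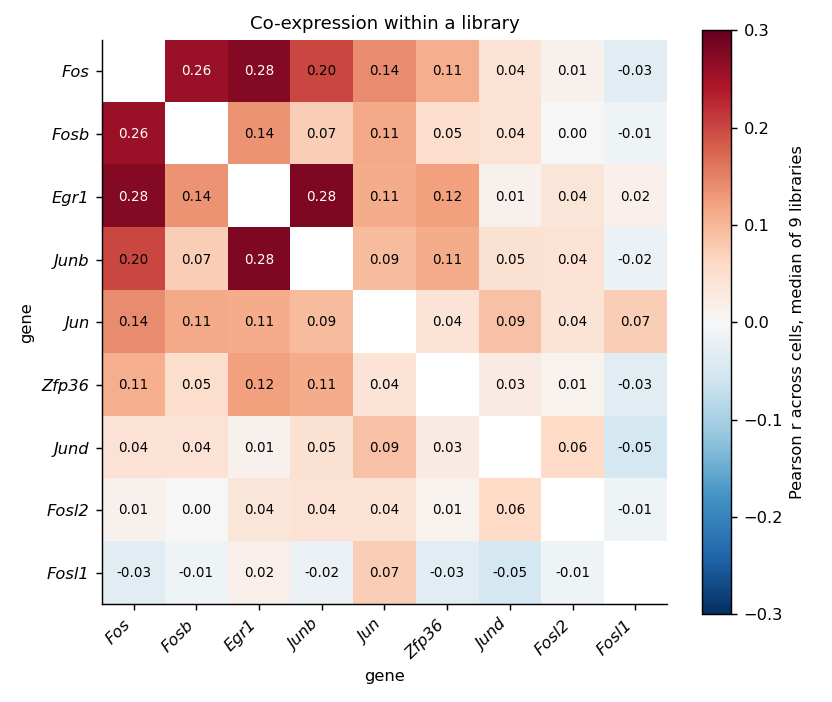
Median over 9 libraries of the Pearson r between 2 genes across thinned cells (colour and number; both axes list the same 9 genes). The highest values are those of Egr1 with Fos and Junb (0.28) and of Fos with Fosb (0.26), Fosb with Junb is at 0.07, and the rows of Fosl2 and Fosl1 lie between -0.05 and 0.07.

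The genes most like Fos that are no member were named by the same measure over 8762 genes whose mean reached 0.05 UMIs in thinned cells. They were Ier2, an immediate early nuclear factor (median r 0.24), Btg2, an antiproliferative early gene (0.19), the orphan nuclear receptor gene Nr4a1 (0.10), the MAP kinase phosphatase gene Dusp1 (0.09), Gm26532 (0.08) and the scavenger receptor gene Colec12 (0.08). The first 4 are themselves immediate early genes. Over the 9 library levels instead, the highest r with Fos among 5888 genes were those of Ier2 (0.84), Cpne3 (0.84), Ppp1r18 (0.83), Fhl3 (0.82), Itfg1 (0.80) and Slc9a3r1 (0.79). Without the 0 h library of Experiment 1 these became 0.44, 0.60, 0.88, 0.89, 0.62 and 0.84. Ier2 was at 225, 45.6 and 47.3 CPM in Experiment 1 and at 36.6 to 72.6 CPM in Experiment 2, so its library pattern, like that of Fos, turned on the first library.

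The wider pathway was read from lists. Of 39 other immediate early genes tested, 0 were called in the pooled SAG comparisons by edgeR. At an unadjusted p under 0.05 there were 10 at 17 to 19 h and 15 at 30 h, where 2.67% and 10.3% of all genes passed. Within the experiments more passed. At 17 h of Experiment 1, 0 were higher and 9 lower, where 0.439% of all genes were lower, with a median of -0.37. At 30 h, 0 were higher and 11 lower, where 0.341% of all genes were lower. At 17 h the values were -2.30 for Ier2 (SE 0.24), -1.70 for Btg2 (SE 0.22), -1.58 for the matricellular gene Cyr61 (SE 0.20) and -1.31 for the small GTPase gene Rhob (SE 0.20). In Experiment 2 the list split, with 6 higher and 6 lower at 19 h, where 9.75% of genes were called higher, and 14 higher and 8 lower at 30 h. Of all genes 10.2% were lower at 19 h, and 24.1% were higher and 22.7% lower at 30 h, so that the 8 lower genes are no more than that share. There the pseudokinase gene Trib1 (1.50, SE 0.14) and Klf4 (1.34, SE 0.15) rose and the Polo-like kinase gene Plk2 fell (-1.20, SE 0.16), while Plk3 rose (1.28, SE 0.16). At 0 h, 27 of the 39 were lower in Experiment 2 and 3 higher, where 25.9% and 24.1% of all genes were. The median was -1.23, beside -0.02 over all genes, and the smallest p were those of Nr4a1 (-2.87, SE 0.20) and Gem (-2.38, SE 0.19). With Dox, 9 were higher and 12 lower, where 18.6% and 18.4% of all genes were, the former with Gem (1.14, SE 0.12) and Nr4a1 (1.11, SE 0.14), the latter with the prostaglandin synthase gene Ptgs2 (-1.17, SE 0.12). Of 16 AP-1 target genes and 13 ERK feedback genes, 0 were called by edgeR within Experiment 1 at either time. At an unadjusted p under 0.05 there were 3 and 1 at 17 h, where 10.2% of all genes passed. At 30 h there were 5 and 3, where 6.49% of all genes passed. At 0 h, 9 of the 16 targets were lower in Experiment 2 and 1 was higher, where 25.9% and 24.1% of all genes were. Of 17 upstream regulators, which include Srf, the Elk factors and the ERK kinases, 0 were called within Experiment 1 (0 and 1 at an unadjusted p under 0.05), as were 0 of 10 heat shock genes (1 and 1), 0 of 11 other bZIP partners of AP-1 (0 and 0) and 0 of 2 relatives of Zfp36 (1 and 1). The paired counts are those at 17 and 30 h, beside the same 10.2% and 6.49% of all genes. With Dox, 4 of 15 AP-1 targets were higher and 9 lower, 1 of 13 ERK feedback genes was higher and 5 lower, and 4 of 17 upstream regulators were higher and 0 lower, against 18.6% of all genes higher and 18.4% lower. DESeq2 counts for these lists were not computed.

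Cells with a UMI of Gli1 were compared with the rest of their library. There were 40 and 22 cells at 17 and 30 h of Experiment 1, 184 and 331 cells at 19 and 30 h of Experiment 2 without Dox, and 432 and 386 with Dox. In Experiment 1 these cells held only 2 and 1 UMIs of Fos after thinning, too few for a ratio, while mean Egr1, from 55 and 29 UMIs, was 2.28-fold and 2.06-fold that of other cells. In Experiment 2, mean Fos was 1.60-fold and 2.05-fold that of other cells without Dox, and 0.813-fold and 0.776-fold with Dox, from 16, 53, 32 and 33 UMIs in the cells with Gli1. Egr1 was at 1.17 and 1.27 without Dox and at 1.02 and 0.966 with Dox. Fosl1 stood below the other cells in all 4 of these libraries, at 0.610 and 0.201 without Dox and 0.589 and 0.212 with Dox, ratios that rest on 5, 4, 11 and 4 UMIs. These are ratios within single libraries, with no test.

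Barcodes over 10% mitochondrial UMIs, which were left out above, differed in these genes from cells of 1% to 10%. As a share of other UMIs, Fos was 1.46-fold to 3.04-fold higher in them in Experiment 1 and 1.16-fold to 1.73-fold in Experiment 2, and Egr1 1.36-fold to 2.01-fold and 1.10-fold to 1.69-fold. Both genes were thus higher in the discarded barcodes of all 9 libraries. Fosl1 went the other way in Experiment 2, at 0.158 to 0.428 of the level in cells of 1% to 10%, and was at 0.638 to 1.48 in Experiment 1. The part of the mitochondrial share in the levels above was not tested. With a limit of 20% the members called within Experiment 1 were the same 4 at both times.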

How the data were processed

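The data are droplet single-cell RNA-seq libraries (10x 3′ v3.1). The deposited matrices hold UMI counts per gene and barcode, made by the authors with Cell Ranger on mm10, per the submitters' processing notes. Per the file headers, software 3.1.0 made the files of Experiment 1 and 6.0.1 those of Experiment 2, and 30407 gene IDs were shared, 597 of them under a changed symbol. The members and gene lists were chosen with earlier results of these data known. Barcodes of 5000 UMIs or more with a mitochondrial share of 10% or less were kept, doublets were not removed, and UMIs were summed per library. The sums were tested with edgeR 4.0.16 in R 4.3.3 (quasi-likelihood F test, filterByExpr, TMM), with Benjamini-Hochberg adjustment over all genes and a threshold of 0.05. Each fit had 2 residual degrees of freedom. One fit had condition and experiment as terms, since the experiment number in the titles is the only label that ties libraries across conditions. The labels do not say what the libraries of 1 experiment shared beyond that number. Another fit had time by experiment plus Dox, and the last, on the 6 libraries of Experiment 2, time plus Dox. DESeq2 1.42.0, other scalings, filters, cell limits and each library left out were alternatives, and library totals were added after seeing the data. For values per cell, cells with 10000 UMIs or more were thinned to that number, and intervals are exact binomial at 95%. The tests were checked on simulated data. All 10 genes were named by rule. From other lists up to 4 called genes per comparison were taken by smallest p, and the 6 genes most like Fos by each measure. Promoters came from RefSeq (GRCm38.p6) and untranslated parts from GENCODE gene models. Sequences on chromosome 18 are not shown.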

Additional observations from a re-analysis of the deposited data

Results flagged for a closer look

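The change with SAG differed between the experiments for 4 genes at both times by the test of the difference itself (Experiment 2 less Experiment 1, log2, edgeR). At 17 to 19 h the difference was 3.26 for Fos, 2.94 for Fosb, 1.53 for Jun and 1.76 for Egr1. At 30 h it was 2.87 for Fos, 2.44 for Fosb, 1.43 for Jun and 2.30 for Egr1. The 2 sets share the 0 h libraries, and Experiment 1 has 1 library at each time. The share of cells with Gli1 at 30 h also differed, at 3.94% in Experiment 1 and 16.2% and 25.2% in Experiment 2 without and with Dox.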

How the results depend on the processing

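The members called within Experiment 1 (4 at each time) and in the difference between the experiments (4 at each time) stayed within 1.5 times those counts under every alternative run, and 0 called values changed direction under them. In both, only 7 libraries could be left out in turn, because a comparison ends without the Experiment 1 libraries it is made of. Its dependence on those single libraries was therefore not tested. In the pooled comparisons each of the 9 libraries could be left out, and the counts changed more. At 17 to 19 h, 1 member was called. The count was 0 with DESeq2 size factors, 0 in DESeq2, and 2 with library totals, with genes of at least 1 UMI, with cells of at least 10000 UMIs or with a mitochondrial limit of 20%. It ran from 0 to 4 with single libraries left out. At 30 h, 0 were called. The count was 1 with library totals, and 2 with genes of at least 1 UMI, with cells of at least 10000 UMIs, with the limit of 20% or with cells of at least 1% mitochondrial UMIs. It ran from 0 to 4 with single libraries left out, and the 4 came without the Experiment 2 library at 0 h without Dox. With no replicate block (without the experiment term) 0 members were called at 17 to 19 h. Within Experiment 2 at 19 h, where 2 were called, the count was 0 with library totals, 1 in DESeq2 and 0 to 4 with single libraries left out, and at 30 h, where 2 were called, it was 0 to 3 with single libraries left out. For Dox, where 6 were called, it was 3 with library totals and 0 with Dox as the only term. The cause of these changes was not tested. Of single genes and values per cell, 1595 stayed on their side, 41 lost and 40 gained a call, and 45 values per cell moved, 39 of them with thinning to 5000 UMIs. Atf3 is limited by its counts in Experiment 2, which lie near the floor of 3 UMIs. Each library of Experiment 2 held more kept UMIs (41379531 or more) than any of Experiment 1 (29122942 or fewer). Depth limits the shallow 19 h library without Dox, where 60.0% of cells were left out of values per cell.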

Other observations

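Fosl1 had a median r of -0.03 with Fos from cell to cell. The genes below were chosen after their values were seen, as the highest of 8748 genes in median Pearson r with Fosl1 across thinned cells. Ccnd1, the cyclin of early G1, had a median r of 0.30 (0.15 to 0.48 over 9 libraries), the receptor gene Tnfrsf12a 0.24 and Tk1, the thymidine kinase of S phase, 0.22. Ccnd1 was found in 28.7% to 77.2% of cells with a UMI of Fosl1 and in 4.52% to 36.8% of cells without one, and Tnfrsf12a in 69.1% to 81.6% and 23.3% to 43.0%. Tk1 was found in 18.6% to 34% of cells with Fosl1 and in 2.79% to 4.98% of those without, so its ranges did not overlap. For each of these 3 genes the share was higher in cells with Fosl1 in 9 of 9 libraries. Their choice by r with Fosl1 in these same cells favoured that, so the shares are no separate support. Egr1 was in 15.7% to 76.4% of cells with Fosl1 and 13.1% to 73.0% without (higher in 8 of 9), and Fos in 0% to 20% and 2.12% to 22.7% (higher in 1 of 9). At the other end stood Rpl39 (-0.18), Gabarap (-0.18), Lox, a collagen cross-linking enzyme gene (-0.17), Rpl37a (-0.17) and the collagen gene Col3a1 (-0.17). These are descriptions over cells within libraries, with no test.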
